A study of Homo sapiens with 6 samples.

Results

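Blood cells make their own versions of several proteins that build and arrange actin filaments, and 10 such genes or their close relatives were followed in K562 cells depleted of NPM. They are WAS, CORO1A, HCLS1, NCKAP1L, LCP1, RAC2, ARHGDIB and WIPF1, which are mainly or most strongly expressed in blood cells, and WASL and CORO1B, the broadly expressed relatives of WAS and CORO1A. The set was chosen by the fall of WAS and CORO1A in these libraries, and the other 8 were added as their relatives and partners. All 10 were found by symbol among the 20802 genes of the deposited tables, and all 10 passed the filter on low values described here.

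K562 is a human cell line established from chronic myeloid leukemia in blast crisis. The NPMKD cells carried shNPM300, a short hairpin RNA against NPM1, and the shSc cells carried a scrambled hairpin. Both were infected with the same lentiviral vector, pLKO.1-puro, and both were selected with puromycin, so the controls share the vector and the selection with the knockdown cells. RNA was measured by AmpliSeq, in which gene-specific primers amplify a short stretch of each cDNA, in 3 NPMKD libraries and 3 shSc libraries. The methods of the study speak of clones, shNPM300 was the only hairpin against NPM1 in these libraries, and it is not stated that the triplicates came from separate cultures. The p-values therefore rest on differences among libraries that may be technical replicates, and anything else that set the NPMKD cells apart cannot be told apart from the knockdown.

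Values are in RPM, a library's reads for a gene scaled to a fixed total, and the libraries held 8842344 to 18981902 reads. The comparison used all NPMKD libraries and shSc replicates 1 and 2, and shSc replicate 3 is given beside it. This pair was taken to be that of the published comparison, which left out a shSc library without naming it. The 11554 genes that reached 1 RPM in no fewer than 2 of these 5 libraries were tested with limma on log2(RPM + 0.5), a scale that understates the change of genes with low RPM, and p was adjusted by the Benjamini-Hochberg method over all of them at 0.05. NPM1 had 1302, 1168 and 655 RPM in NPMKD libraries, against 3856 and 2968 RPM in shSc replicates 1 and 2 and 3146 RPM in shSc replicate 3, with a log2 fold change of -1.76 (SE 0.35) that did not pass (adjusted p = 0.158 from limma). The 10 K562 markers examined, among them GATA1, were all above the filter, while PTPRC, the general leukocyte antigen CD45, reached at most 0.256 RPM. Replicate 3 of shSc stood apart: it had 16619 genes above 0, against 13893 to 14600 in the other libraries, and its correlation with them on the log2 scale was 0.839 to 0.879, against 0.922 to 0.972 among the rest. Its summed B cell markers were 81.5 RPM and its summed monocyte and macrophage markers 86.6 RPM, against at most 0.986 and 1.36 RPM in the other libraries, but those sums came mostly from VPREB1, CD79B, CD14 and CSF1R, and MS4A1, PAX5, CD163, FCN1 and MARCO were at 0 in all 6 libraries. The part of such transcripts in any member's level in that library was not tested.

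Actin filaments are branched by the Arp2/3 complex, which needs an activator to start a new filament. WASP, the product of WAS, is such an activator in blood cells; it is switched on by the GTPase CDC42 and held stable by its partner WIP, and its loss causes Wiskott-Aldrich syndrome. The WAVE complex is another activator and answers to RAC GTPases, with HEM1, the product of NCKAP1L, as its blood cell subunit. Coronins and cortactins bind filaments and the Arp2/3 complex, and plastins bundle filaments.

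The stretches upstream of annotated starts are shown for the 2 genes that chose the set, for HCLS1, whose log2 fold change was the next lowest of the set, and for CORO1B, the broad relative of CORO1A, because they are where blood cell factors could bind. Sequences are from the RefSeq promoter table (GRCh38.p14), which held 8 of the 10 genes; their positions were found by exact match to GRCh37. Each is given 5′ to 3′ on the gene's strand, without bases that lie in an annotated exon, and capitals mark a searched motif.
WAS (chrX:48541938-48542187, plus strand): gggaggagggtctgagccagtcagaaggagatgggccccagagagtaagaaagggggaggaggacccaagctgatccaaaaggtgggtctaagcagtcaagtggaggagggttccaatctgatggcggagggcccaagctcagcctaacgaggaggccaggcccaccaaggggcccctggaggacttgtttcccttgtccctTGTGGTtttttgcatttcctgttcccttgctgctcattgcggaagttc
CORO1A (chr16:30194673-30194825, plus strand): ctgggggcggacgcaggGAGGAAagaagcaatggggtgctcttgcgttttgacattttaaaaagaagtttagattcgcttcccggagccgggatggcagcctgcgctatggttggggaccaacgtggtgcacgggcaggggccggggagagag
HCLS1 (chr3:121379775-121380000, minus strand): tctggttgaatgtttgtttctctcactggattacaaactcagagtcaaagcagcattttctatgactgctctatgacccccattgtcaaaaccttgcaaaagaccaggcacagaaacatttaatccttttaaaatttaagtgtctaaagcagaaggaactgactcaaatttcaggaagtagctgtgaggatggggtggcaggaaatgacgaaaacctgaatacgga
CORO1B (chr11:67210984-67211197, minus strand): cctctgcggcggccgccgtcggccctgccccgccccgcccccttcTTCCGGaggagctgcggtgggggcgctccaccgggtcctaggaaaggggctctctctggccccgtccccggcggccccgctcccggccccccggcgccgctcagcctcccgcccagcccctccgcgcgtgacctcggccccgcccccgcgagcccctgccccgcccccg
The motifs searched on both strands were GAGGAA, as PU.1 binds, CCGGAA, as many ETS factors bind, AGATAA, as GATA factors bind, and TGTGGT, as RUNX factors bind. Both ETS forms share the letters GGAA. The WAS window, which lies within the gene in no annotated exon, held TGTGGT 48 bases upstream of its start, and the other annotated WAS start held none of the 4. The CORO1A and CORO1B windows also lie within the annotated span of their genes. The CORO1A window held GAGGAA 233 bases upstream. The CORO1B window held CCGGAA on the other strand, 205 bases upstream, and the HCLS1 window held none. Over 35116 windows of 250 bases the share with the motif was 23.57% for GAGGAA, 14.53% for CCGGAA, 9.17% for AGATAA and 10.98% for TGTGGT, and 4, 2, 1 and 3 of the 8 matched genes had it in any of their windows. The 8 genes had 14 windows, so these counts per gene cannot be set directly against shares per window. These matches are a description of letters only.

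Of the activators of branching, WAS had 17.1, 19.4 and 7.90 RPM in NPMKD libraries, against 115.0 and 143.3 RPM in shSc replicates 1 and 2. The groups lay far apart, and shSc replicate 3, at 69.6 RPM, also lay above every NPMKD library. The NPMKD mean was 14.8 ± 6.10 RPM (SD, n = 3) and the shSc mean 129.1 ± 20.05 RPM (SD, n = 2). Their difference as a log2 fold change, -3.17 (SE 0.40), is given as a description because it chose the set. WAS (GRCh37 chromosome X, 48534985 to 48549822, plus strand) was read by 150 to 1797 reads in the 6 libraries. In bulk RNA, fewer cells that express a gene and less RNA per cell cannot be told apart.

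WASL, which encodes N-WASP, the activator found in most tissues, had 38.4, 28.1 and 56.0 RPM in NPMKD libraries, against 36.9 and 20.9 RPM in shSc replicates 1 and 2 and 21.3 RPM in shSc replicate 3. The groups overlapped, and NPMKD replicate 3 was the highest. The log2 fold change was 0.49 (95% interval -0.39 to 1.38, adjusted p = 0.858 from limma), and 0.09 without shSc replicate 2 or 0.89 without shSc replicate 1. WIPF1, which encodes WIP, had 6.31, 6.99 and 5.11 RPM in NPMKD libraries, against 5.71 and 2.95 RPM in shSc replicates 1 and 2 and 4.98 RPM in shSc replicate 3. It had the fewest reads of the set, 37 to 97 per library. Its groups overlapped too, with a log2 fold change of 0.51 (95% interval -0.40 to 1.42, adjusted p = 0.858 from limma), and 0.086 without shSc replicate 2 or 0.93 without shSc replicate 1.

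NCKAP1L had 34.7, 28.3 and 61.1 RPM in NPMKD libraries, against 114.8 and 72.6 RPM in shSc replicates 1 and 2 and 68.8 RPM in shSc replicate 3. Every NPMKD library lay below every shSc library, with NPMKD replicate 3 close to the lowest of them. The log2 fold change was -1.21 (95% interval -2.09 to -0.33), and it did not pass (adjusted p = 0.480 from limma).

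**Figure D1:**
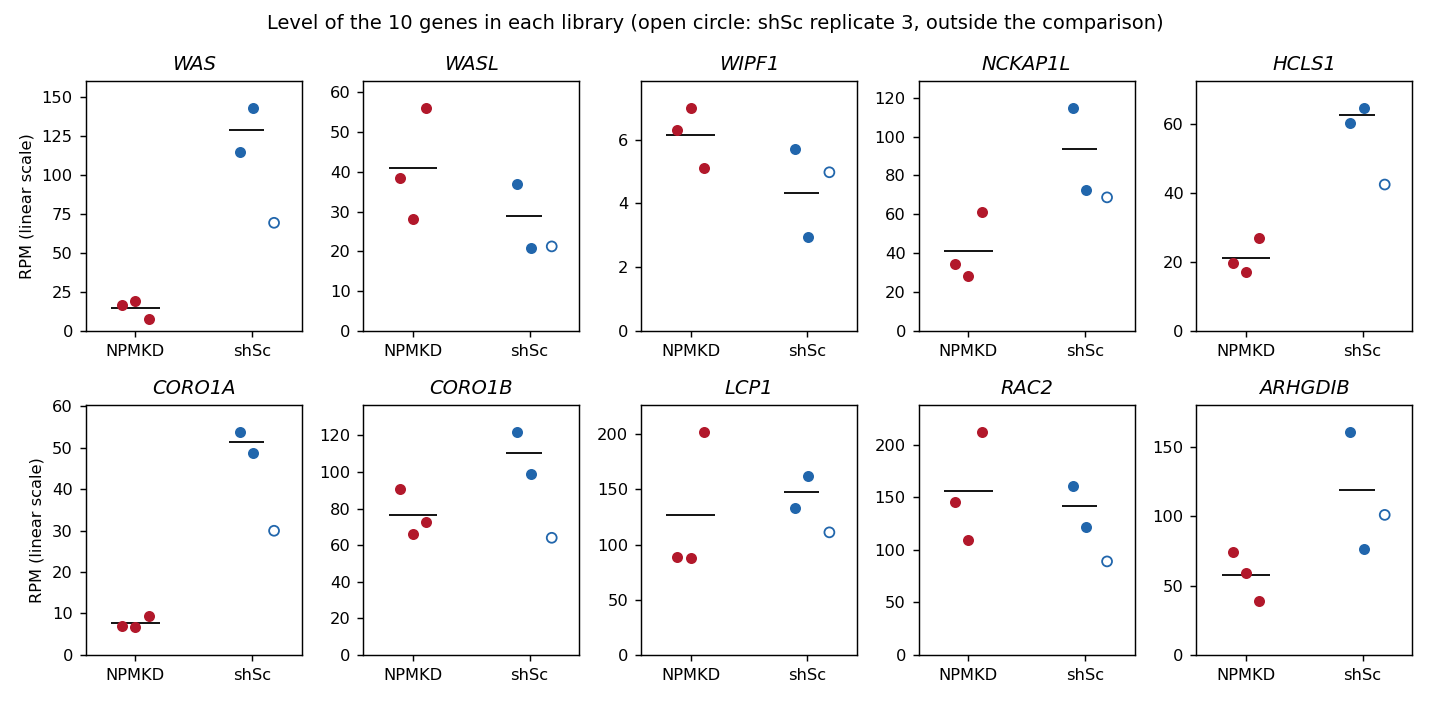
Level of each of the 10 genes in RPM (linear axes from 0), with 3 NPMKD libraries left of the shSc libraries; points are libraries, bars are means, and the open circle is shSc replicate 3, which is in neither the mean nor the test. For WAS the NPMKD libraries sit between 7.90 and 19.4 RPM and the filled shSc points at 115.0 and 143.3 RPM, while the groups overlap for WASL, WIPF1, LCP1 and RAC2.

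Among the proteins that bind filaments and the Arp2/3 complex, CORO1A had 7.07, 6.65 and 9.43 RPM in NPMKD libraries, against 53.9 and 48.7 RPM in shSc replicates 1 and 2. Libraries of the same group lay close together, and shSc replicate 3, at 29.97 RPM, was above every NPMKD library. The NPMKD mean was 7.72 ± 1.499 RPM (SD, n = 3) and the shSc mean 51.3 ± 3.67 RPM (SD, n = 2). The log2 fold change of -2.67 (SE 0.30) is likewise a description. CORO1A encodes the coronin of leukocytes and lies on GRCh37 chromosome 16, 30194148 to 30200397, plus strand.

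CORO1B, the coronin of most cell types, had 90.6, 66.0 and 72.8 RPM in NPMKD libraries, against 122.1 and 98.7 RPM in shSc replicates 1 and 2. These groups did not overlap, but shSc replicate 3, at 64.0 RPM, lay below every NPMKD library. The log2 fold change was -0.53 (95% interval -1.12 to 0.055, adjusted p = 0.754 from limma).

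HCLS1, which encodes HS1, the cortactin relative of blood cells, had 19.7, 17.2 and 26.97 RPM in NPMKD libraries, against 60.5 and 64.8 RPM in shSc replicates 1 and 2 and 42.5 RPM in shSc replicate 3. All NPMKD libraries lay below all shSc libraries. Its log2 fold change was -1.56 (95% interval -2.23 to -0.89), which did not pass (adjusted p = 0.140 from limma). On reads recovered from the RPM values it did not pass with edgeR (adjusted p = 0.109) and passed with DESeq2 (adjusted p = 1.2e-04), and over all alternatives the adjusted p was 8.2e-06 to 0.735. HCLS1 lies on GRCh37 chromosome 3, 121350246 to 121379774, minus strand.

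LCP1, which encodes the leukocyte plastin, had 89.0, 88.3 and 202.4 RPM in NPMKD libraries, against 133.2 and 162.5 RPM in shSc replicates 1 and 2 and 111.1 RPM in shSc replicate 3. NPMKD replicate 3 lay above every shSc library and the other two NPMKD libraries below them. The log2 fold change was -0.33 (95% interval -1.23 to 0.57, adjusted p = 0.916 from limma), and it was -0.73 without NPMKD replicate 3, -0.13 without NPMKD replicate 2, -0.14 without NPMKD replicate 1 and -0.19 without shSc replicate 2.

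RAC2, the RAC GTPase of blood cells, had 145.7, 109.2 and 212.4 RPM in NPMKD libraries, against 160.4 and 122.0 RPM in shSc replicates 1 and 2 and 88.9 RPM in shSc replicate 3. The groups overlapped, and the log2 fold change was 0.10 (95% interval -0.64 to 0.84, adjusted p = 0.968 from limma). Its sign turned to -0.15 without NPMKD replicate 3 and to -0.095 without shSc replicate 2, and it was 0.33 without NPMKD replicate 2 and 0.30 without shSc replicate 1.

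ARHGDIB had 73.9, 59.0 and 39.2 RPM in NPMKD libraries, against 160.9 and 76.2 RPM in shSc replicates 1 and 2 and 100.9 RPM in shSc replicate 3. The groups did not overlap, but NPMKD replicate 1 and shSc replicate 2 were nearly level. The log2 fold change was -0.99 (95% interval -1.90 to -0.08, adjusted p = 0.659 from limma), and it was -0.45 without shSc replicate 1 and -1.53 without shSc replicate 2.

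**Figure D2:**
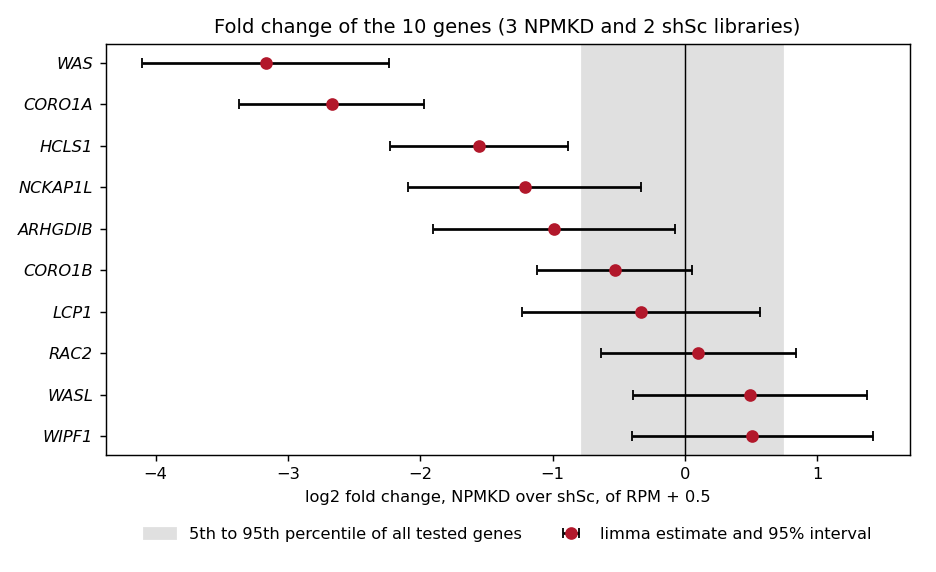
Log2 fold change of RPM + 0.5, NPMKD over shSc, for each gene (points) with its 95% interval from limma (bars), 3 NPMKD and 2 shSc libraries. The grey band is the range from the 5th to the 95th percentile of all 11554 genes, -0.78 to 0.74; WAS, CORO1A, HCLS1, NCKAP1L and ARHGDIB lie to its left and the other 5 points inside it.

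As a set, 6 of the 10 genes were lower in every NPMKD library than in shSc replicates 1 and 2, where 10.4% of all tested genes were. None was higher in every one, where 1425 of the 11554 tested genes were. The 6 include WAS and CORO1A, which chose the set, and 4 of the other 8. Replicate 3 of shSc lay above every NPMKD library for 5 of these 6, the exception being CORO1B. The share was 20.7% over all tested genes and 41.7% over those lower without overlap. Besides WAS and CORO1A, from which nothing is read because they chose the set, the genes were HCLS1, NCKAP1L and ARHGDIB. That library lay below every NPMKD library for CORO1B, WASL, WIPF1 and RAC2. The share of all tested genes below in this way was not computed, so nothing is read from these genes as a count. The median log2 fold change was -0.76 over the 10 genes, -0.43 over the 8 without WAS and CORO1A and 0.01 over all tested genes.

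With limma 2 of the 10 passed, WAS and CORO1A, where 0.0606% of all tested genes passed as lower; that contrast chose them, so nothing is read from the count. On recovered reads 1 of the 10, CORO1A, passed with edgeR, where 0.0519% of tested genes were called lower. With DESeq2 3 passed, WAS, CORO1A and HCLS1, where 0.736% were. These reads are from the same libraries, so nothing is read from WAS and CORO1A passing here either. None of the 10 passed with limma when any 1 of the 5 libraries was left out, NPMKD replicate 1, 2 or 3 or shSc replicate 1 or 2, or when shSc replicate 3 was added. In those fits 3 to 5 of the 10, and 1 to 3 of the 8 without WAS and CORO1A, had an unadjusted p under 0.05, as did 3.61% to 12.7% of all tested genes. The log2 fold changes stayed negative in every alternative run, at -3.41 to -2.65 for WAS and -2.81 to -2.25 for CORO1A. These ranges are a description too, since those falls chose the set.

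Each blood gene was also set against a broadly expressed relative within the same library, a ratio of RPM + 0.5 in which library depth largely cancels. AmpliSeq reads each gene with its own amplicon, so a ratio is compared between libraries only. The log2 ratio of WAS to WASL was -1.14, -0.52 and -2.75 in NPMKD libraries, against 1.63 and 2.75 in shSc replicates 1 and 2 and 1.69 in shSc replicate 3. The change in the mean log2 ratio was -3.66. The log2 ratio of CORO1A to CORO1B was -3.59, -3.22 and -2.88 in NPMKD libraries, against -1.17 and -1.01 in shSc replicates 1 and 2 and -1.08 in shSc replicate 3. Neither pair overlapped, and in shSc replicate 3 both ratios lay between those of the other shSc libraries.

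The ratio of HCLS1 to CTTN, cortactin itself, differed by -1.67 on the log2 scale and that of NCKAP1L to NCKAP1, the broad WAVE subunit, by -1.38, both without overlap. For NCKAP1L the groups nearly touched, at -0.78 in NPMKD replicate 3 and -0.61 in shSc replicate 2. CTTN was at 211, 215 and 180 RPM in NPMKD libraries, against 186 and 185 RPM in shSc replicates 1 and 2, so its groups overlapped. The ratios of WIPF1 to WIPF2, RAC2 to RAC1 and ARHGDIB to ARHGDIA overlapped between the groups, with differences of 0.15, -0.17 and -0.80. ARHGDIA was at most 1.83 RPM, so its ratio rests on few reads. No ratio is given for LCP1, since its relative PLS3 was at 0 in all shSc libraries and at most 0.589 RPM in NPMKD. No ratio was tested, since WAS and CORO1A chose the set.

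**Figure D3:**
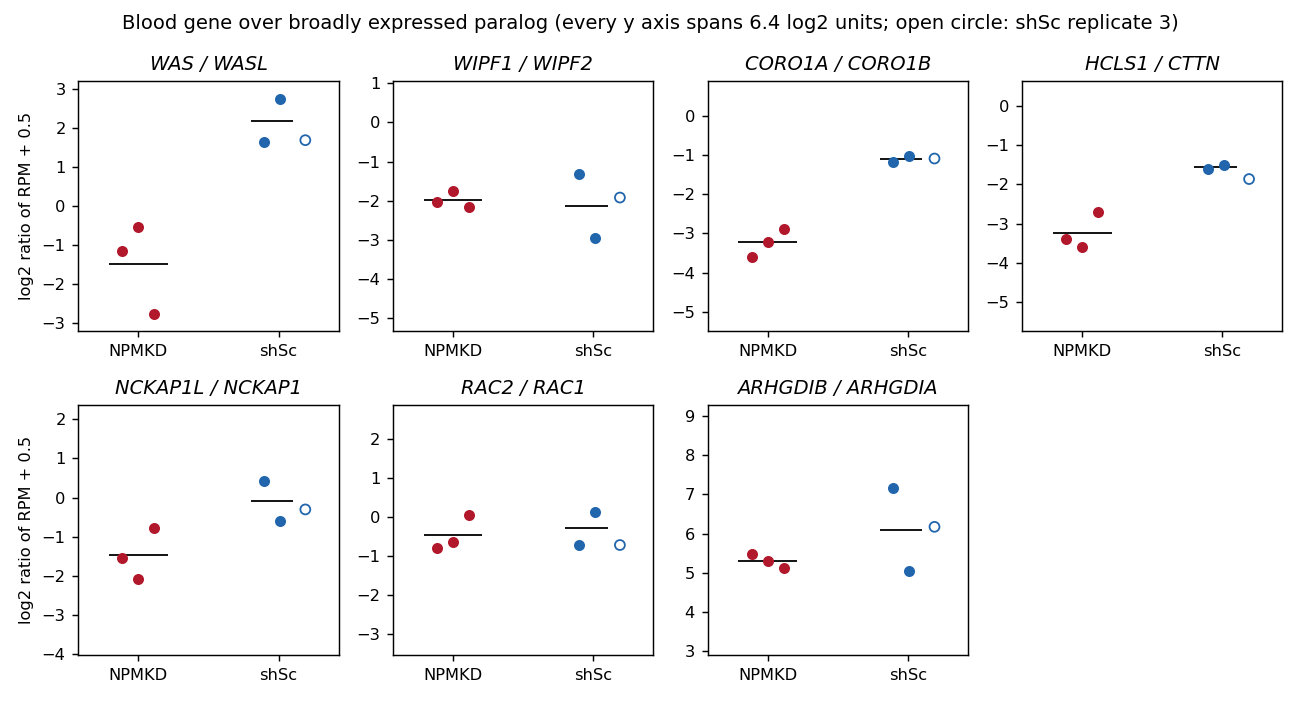
Log2 ratio (of RPM + 0.5) of 7 blood genes to a broadly expressed relative within a library, NPMKD left of shSc; points are libraries, bars are means and the open circle is shSc replicate 3. Every axis spans the same number of log2 units; the WAS, CORO1A, HCLS1 and NCKAP1L ratios do not overlap between the groups and the other 3 do.

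The wider actin machinery was described from 9 lists, whose 93 genes outside the set included 74 that were tested. None of the 74 passed with limma or edgeR, where 15 and 11 of all 11554 tested genes did. With either tool 5 of the 74 had an unadjusted p under 0.05. That held for 7.14% of all tested genes with limma and for 802 of 11554 with edgeR. With DESeq2 2 of the 74 passed, DOCK2 and CYFIP2, where 190 of 11554 did. CYFIP2 met the filter only through NPMKD libraries. Nothing is read from these counts. The median log2 fold change of the 74 with limma was 0.0002. In the WASP and WIP list 10 of 11 genes were tested, and WAS alone passed. In the coronin list 6 of 7 were tested, and CORO1A alone passed. The falls of WAS and CORO1A chose the set, so nothing is read from their passing. All 10 genes of the Arp2/3 complex were tested and none passed, with a median of 0.11. ACTR2, which with ACTR3 forms the core where a branch begins, had 433, 426 and 489 RPM in NPMKD libraries, against 454 and 552 RPM in shSc replicates 1 and 2. ACTR3 had a log2 fold change of 0.21 (95% interval -0.36 to 0.79, adjusted p = 0.916 from limma).

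With limma none passed among 9 tested genes of the WAVE complex, 4 cortactins, 8 plastins and other bundlers, 10 exchange factors, 19 turnover factors and 8 formins, while DESeq2 called CYFIP2 of the WAVE complex, HCLS1 of the cortactins and DOCK2 of the exchange factors. WASF2, a broadly expressed WAVE protein, had a log2 fold change of -0.34 (95% interval -1.23 to 0.54, adjusted p = 0.913 from limma). ACTB, cytoplasmic beta-actin, had 7486, 8838 and 4089 RPM in NPMKD libraries, against 5350 and 4869 RPM in shSc replicates 1 and 2, and its groups overlapped. ACTG1, cytoplasmic gamma-actin, had a log2 fold change of -0.36 (95% interval -0.99 to 0.26, adjusted p = 0.852 from limma).

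**Figure D4:**
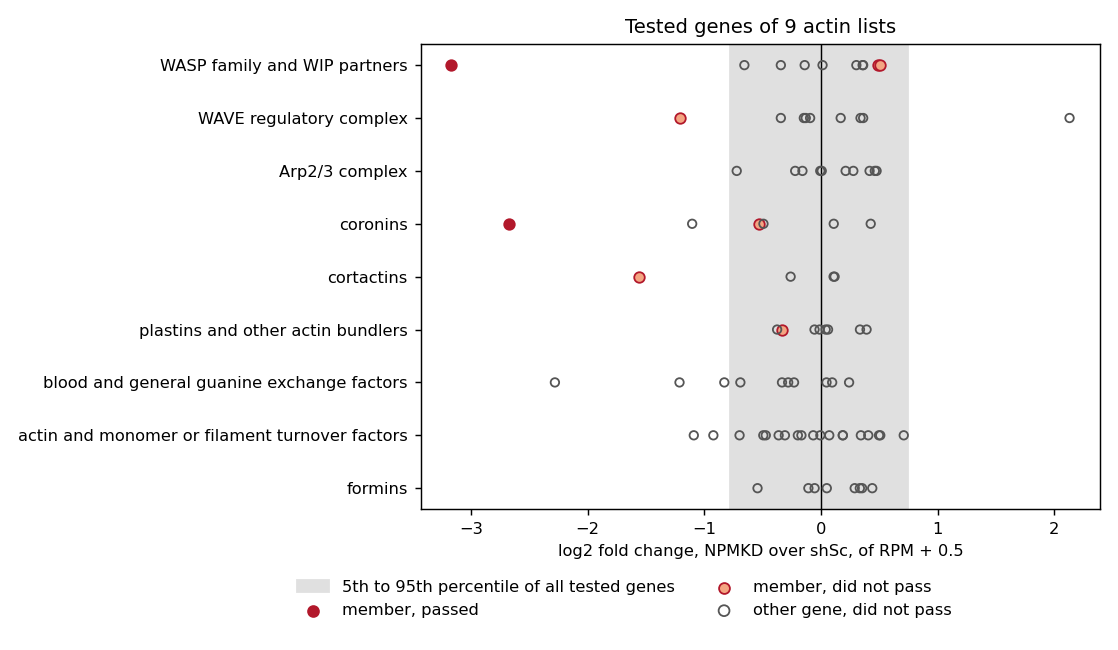
Log2 fold change of RPM + 0.5, NPMKD over shSc, of every tested gene in 9 actin lists (a gene in several lists is drawn in each); filled red points are WAS and CORO1A, pale red points are other genes of the set that these lists hold, open grey points are other genes, and the grey band is the 5th to 95th percentile of all tested genes. The Arp2/3 complex, the plastins and other bundlers, and the formins lie wholly within the band, from -0.78 to 0.74.

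The 5 genes whose profile over the 6 libraries was most like that of WAS, by the root mean square difference of centred log2(RPM + 0.5) among 9753 genes with a mean of at least 5 RPM, were NEO1 (0.38), INPP5D (0.39), AIF1 (0.54), PLOD2 (0.55) and SELPLG (0.55). CORO1A came next, at rank 6 (0.60), and HCLS1 was at rank 30, ARHGDIB at 72, NCKAP1L at 129 and CORO1B at 743. The rest of the set was far from WAS, with LCP1 at rank 3907, RAC2 at 7858, WIPF1 at 7961 and WASL at 9125. INPP5D, the inositol phosphatase SHIP1 of blood cells, had 4.12, 2.73 and 2.11 RPM in NPMKD libraries, against 43.6 and 29.99 RPM in shSc replicates 1 and 2 and 18.1 RPM in shSc replicate 3. For CORO1A the 5 were TYROBP (0.24), SLCO4C1 (0.26), PTPN6 (0.26), SIGLEC12 (0.27) and PLOD2 (0.27). HCLS1 was at rank 18, WAS at 24, NCKAP1L at 54 and ARHGDIB at 174. Further off were CORO1B at rank 1027, LCP1 at 1652, RAC2 at 6212, WIPF1 at 8124 and WASL at 8506. TYROBP, an adaptor of myeloid receptors, had 3.28, 5.46 and 6.90 RPM in NPMKD libraries, against 36.4 and 32.9 RPM in shSc replicates 1 and 2 and 24.0 RPM in shSc replicate 3. These ranks describe profiles over libraries of 2 groups and carry no test.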

How the data were processed

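AmpliSeq libraries were made in triplicate from DNaseI-treated RNA and sequenced on an Ion Proton. Per the methods, Torrent Suite did the alignment to hg19, and the authors deposited RPM per gene made with the AmpliSeqRNA plugin. The plugin's version is not given in the sources used here. All RPM values (100%) lay within 0.1 read of a whole number of reads. The 10 spike-in rows were all 0 and left out. A count of 0 allows up to 0.158 to 0.339 RPM (3 reads), for counting error only.

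The members and gene lists were chosen with earlier results of these data known. Genes that reached 1 RPM in no fewer than 2 of 5 libraries entered limma 3.58.1 (R 4.3.3) as log2(RPM + 0.5), with a variance trend and without covariates, and p was adjusted by Benjamini-Hochberg at 0.05. Fold changes are NPMKD over shSc. The fitting procedure was tested on simulated data for 3 NPMKD and 2 shSc libraries, in which 200 genes were given a change. With a fixed small SD, 100% of log2 changes of 1, 2 or 3 were recovered. With each gene's own residual SD, 0% of log2 changes of 1, 57.5% of 2 and 87% of 3 were recovered. At that spread a log2 change of 1 was always missed, so lack of a call is not read as lack of change. Some list results are not reported here. Named genes are the 10 members, their broad relatives, list members that passed or the 2 most abundant tested (a selection of these is printed), the 5 most alike profiles and NPM1. Alternatives were pseudocounts of 0.1 and 1, no filter or 5 RPM, TMM factors, all 6 libraries, limma without the trend, a replicate block, edgeR 4.0.16 (quasi-likelihood) and DESeq2 1.42.0 on recovered reads, each library left out, and, chosen after seeing the data, shSc replicate 3 in place of another. Coordinates are from GENCODE release 44 on GRCh37. Python 3.11.15 with pandas 2.3.3 was used for tables.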

Additional observations from a re-analysis of the deposited data

Results flagged for a closer look

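In shSc replicate 3, which is outside the comparison, 4 summed marker lists were above their level in every other library, each mostly through 1 or 2 genes. Its summed T and NK cell markers were 159.2 RPM, against at most 93.5 RPM in the other 5 libraries, with NKG7 at 56.0 RPM and LCK at 47.0 RPM. CD3D, at 52.9 RPM, was not raised there, being at 87.6 RPM in NPMKD replicate 3 and 49.0 RPM in shSc replicate 2. CD7 was at 0.905 RPM, against 34.6 RPM in shSc replicate 2. Its summed B cell markers were 81.5 RPM, against at most 0.986 RPM, with VPREB1 at 61.0 RPM and CD79B at 19.8 RPM. Its summed monocyte and macrophage markers were 86.6 RPM, against at most 1.36 RPM, with CD14 at 53.0 RPM and CSF1R at 31.4 RPM. Its summed fibroblast markers were 93.9 RPM, against at most 56.3 RPM, with PDGFRA at 72.6 RPM. Other markers of these lists, PTPRC, MS4A1, PAX5, CD163, FCN1, MARCO, KLRD1, COL3A1, DCN and LUM, were at 0 in that library. Its summed epithelial markers, at 1006 RPM, lay below the 1548 RPM of NPMKD replicate 3. In the same library WAS was at 69.6 RPM and CORO1A at 29.97 RPM, both below shSc replicates 1 and 2 and above every NPMKD library.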

How the results depend on the processing

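Over the 10 members and 17 alternatives, 141 log2 fold changes kept their direction and side of the threshold, 21 no longer passed, 5 newly passed and 3 changed sign. The 3 are RAC2, at -0.15 with the replicate block and without NPMKD replicate 3, and -0.095 without shSc replicate 2; leaving out 1 library gave it -0.15 to 0.33. Of all tested genes 15 passed with limma, against 2 with no filter, 7 with a filter of 5 RPM, 3 with all 6 libraries, 190 with DESeq2, 0 to 5 when 1 library was left out, and 0 with shSc replicate 3 in place of shSc replicate 1 or 2 (1358 and 779 genes had an unadjusted p under 0.05; 875 and 994 without shSc replicate 1 or 2, where 0 passed). Of the members 2 passed, against 0 with no filter, 1 with a filter of 5 RPM, 0 with all 6 libraries, 1 without the variance trend, 1 with edgeR, 0 to 0 when 1 library was left out and 0 with either replacement. The cause was not tested. Where 1 shSc library was left, it was assumed to vary like the NPMKD libraries.

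With the replicate block 1698 genes and 6 members passed (WAS, CORO1A, HCLS1, NCKAP1L, LCP1 and ARHGDIB), on 1 residual degree of freedom per gene before moderation, since NPMKD replicate 3 then has a block of its own. The labels give only shared numbers. Over 6 libraries, deviations of same-numbered libraries correlated at 0.43, 0.31 and 0.04. NPMKD replicate 3 correlated better with shSc replicate 2 (0.08) than with its own number. Over the 5 libraries compared, same-numbered libraries correlated at 0.53 for number 1 and 0.46 for number 2. With 2 shSc libraries, the crossed correlations, -0.53 and -0.46, are these values with the sign reversed. The numbers were not taken as pairs, but an effect shared by same-numbered libraries was not tested. The main calls for HCLS1, NCKAP1L, LCP1 and ARHGDIB, which did not pass, changed with the block.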

Other observations

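Some genes of the wider actin lists are named here after their values were seen. DOCK2, the exchange factor that activates RAC in blood cells, had 22.4, 27.5 and 47.7 RPM in NPMKD libraries, against 156.2 and 148.0 RPM in shSc replicates 1 and 2 and 72.9 RPM in shSc replicate 3. Its log2 fold change was -2.28 (SE 0.34), which did not pass (adjusted p = 0.0666 from limma). VAV1, another blood cell exchange factor, had 21.3, 18.2 and 40.7 RPM in NPMKD libraries, against 78.5 and 44.2 RPM in shSc replicates 1 and 2 and 33.5 RPM in shSc replicate 3, which lay among the NPMKD values. Its log2 fold change was -1.21 (SE 0.42, adjusted p = 0.562 from limma).

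In the other direction, CYFIP2, a WAVE complex subunit, had 3.62, 1.54 and 1.32 RPM in NPMKD libraries, against 0.141 and 0 RPM in shSc replicates 1 and 2 and 0.113 RPM in shSc replicate 3. Every NPMKD library lay above every shSc library, and the log2 fold change was 2.13 (SE 0.49, adjusted p = 0.249 from limma). CYFIP2 met the filter on low values only through NPMKD libraries. Its shSc values lay under the level of 3 reads, which was 0.211, 0.239 and 0.339 RPM in shSc replicates 1, 2 and 3. The separation is therefore a description only.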
